A study of Homo sapiens with 6 samples.

Results

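CXCR4, the decoy receptor ACKR3 and a set of chemokine genes were followed across 6 arrays of PC3 cells, a human prostate cancer line established from a bone metastasis. The genes were CXCR4, ACKR3, CXCL1, CXCL2, CXCL3, CXCL5, CXCL6, CXCL8, CXCL16 and CCL20, and their probe sets were those annotated to a single one of these symbols. This gave 14 probe sets for 9 genes out of 22277 probe sets in the table. No probe set was annotated to CXCL16 alone, and that gene was not analysed here. The genes were chosen by their differences between the 2 groups of these same arrays, so their differences between the groups are given below as a description, with no p-value. Counts of them past a threshold stand only beside the share over all probe sets, and support nothing.

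The 3 arrays labelled PSMA (4 to 6) came from PC3 cells said to carry the pLNCX-PSMA plasmid, named for the membrane peptidase PSMA, which the gene FOLH1 encodes. The 3 arrays labelled control (1 to 3) came from PC3 cells that the titles call wild type and the source label calls vector only. Per the labels' protocols, both were grown in RPMI, transfected with 3 µg of plasmid and 2 µg of FuGENE 6 for 30 min, left for 72 h to recover and selected with puromycin. Whether the cells were clones or pools, and whether replicates were separate cultures, was not given in the sources used here, and p-values therefore reflect array-to-array spread, possibly of technical origin. Values were linear GCRMA intensities in arbitrary units, differences are log2 PSMA minus control, and errors of means are SD with n = 3 arrays in each group.

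Array medians ran from 51.7 to 52.9. Across probe sets, r was 0.9976 to 0.9981 within groups and 0.9874 to 0.9878 between them. The label check failed: the brightest FOLH1 probe set, shared with its paralog FOLH1B, read 12.5 ± 3.44 on arrays labelled PSMA and 480.8 ± 65.3 on arrays labelled control. Every direction below therefore follows labels that the FOLH1 signal goes against. Of 6 epithelial and prostate markers on the array, KRT8, KRT18, EPCAM and CDH1 passed the filter described below and fell, against 33.5% of all genes tested. KLK2 and KLK3 were below it, with log2 differences of 0.19 and 0.14. Of 11 leucocyte markers on the array 0 passed the filter, and their summed intensity was 239 to 246 on arrays labelled PSMA and 219.8 to 242 on arrays labelled control. Of 11 fibroblast and endothelial markers 2 passed it (COL1A1 and PECAM1), with sums over all 11 of 577 to 609 on arrays labelled PSMA and 479 to 494 on arrays labelled control. Among the markers below the filter, PTPRC averaged 6.93 on arrays labelled PSMA and 7.38 on arrays labelled control, and CDH5 7.28 and 6.44 on the same groups. Some of these dim markers stood apart between groups: KDR averaged 29.9 on arrays labelled PSMA and 10.24 on arrays labelled control, ITGAM 28.5 and 21.1, and LUM 6.26 and 35.1. A 28S rRNA control (middle segment) stood at 675 ± 4.29 on arrays labelled PSMA and 1498 ± 63.1 on arrays labelled control. The log2 difference was -1.15 on that segment, -0.51 on the 5' segment and 0.08 on the 3' segment, where the groups overlapped. The part of these shifts in the results below was not tested.

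Chemokines are small secreted proteins that bind G protein-coupled receptors on target cells and guide their movement. CXCR4 is the receptor of CXCL12, a chemokine abundant in bone marrow, and it is widely studied in the homing of prostate cancer cells to bone. ACKR3 binds CXCL12 as well, but signals through arrestins and takes the ligand up. CXCL1, CXCL2, CXCL3, CXCL5, CXCL6 and CXCL8 carry an ELR motif before their first cysteines and attract neutrophils through CXCR1 and CXCR2. CXCL16 is made as a membrane protein and binds CXCR6, and CCL20 binds CCR6.

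The receptor and its decoy lay on opposite sides on these arrays. CXCR4 was low on every array labelled PSMA, ACKR3 was moderately higher there, and the ELR chemokines split: CXCL6, CXCL5 and CXCL1 were higher, CXCL8 was lower, and CXCL2 and CXCL3 overlapped between the groups. A probe set was fitted if 3 or more arrays exceeded 52.5, the overall median. Of the 14 probe sets 9 did, representing 8 genes. By limma with Benjamini-Hochberg adjustment (threshold 0.05), 7 of these 9 were called, against 60.6% of all 11303 probe sets tested. The call was higher on arrays labelled PSMA for 4 (background 28.2%) and lower for 3 (background 32.4%). The groups stood apart, with no overlap of their arrays, in 11 of the 14, against 44.9% of all probe sets, and in 7 of the 9 past the filter, against 67.3%. Set against a minimum fold of 1.5, 4 of the 9 passed limma (background 6.61%). Because this contrast chose the genes, nothing is read from these counts.

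**Figure D1:**
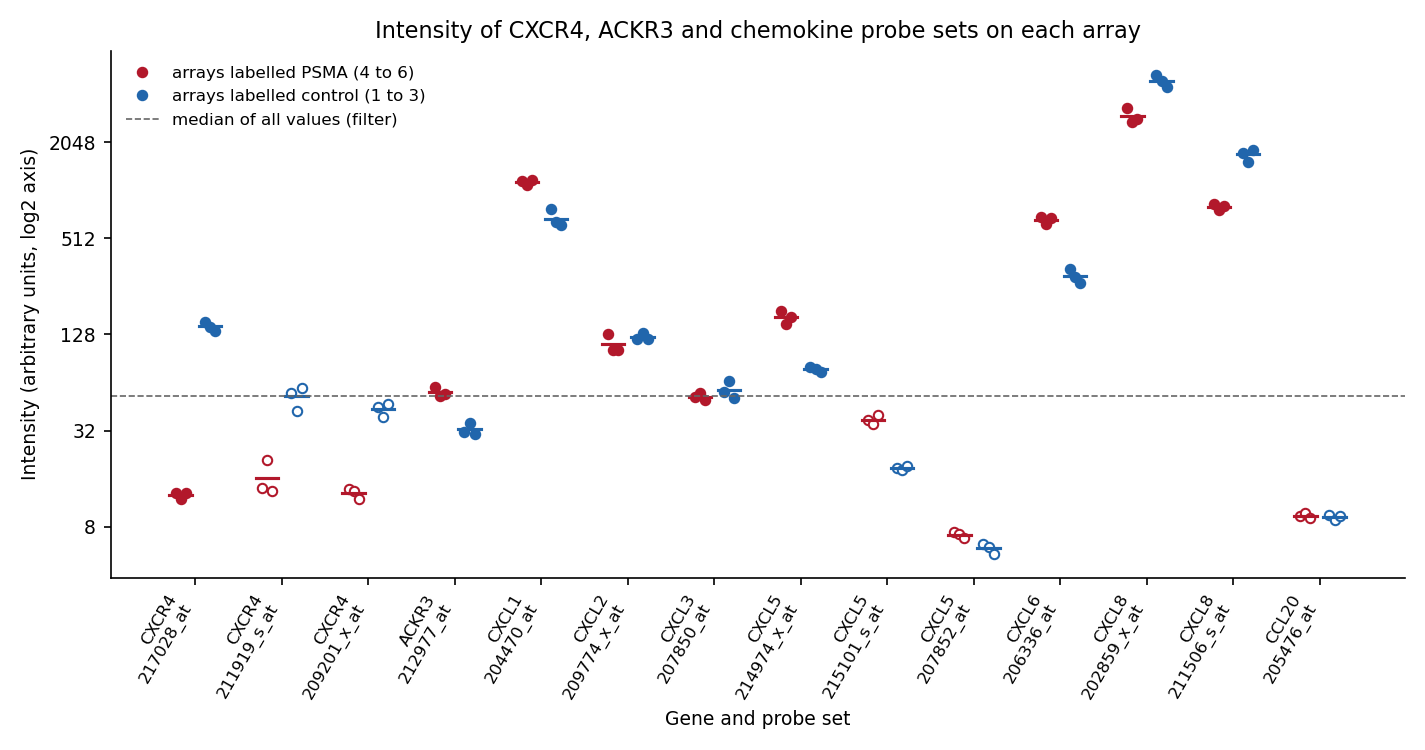
Intensity (arbitrary units, log2 axis) of each of the 14 probe sets on the 3 arrays labelled PSMA (red, left) and the 3 labelled control (blue, right); bars are group means, open circles are probe sets below the filter, and the dashed line is the filter of 52.5. All 3 CXCR4 probe sets lie lower on arrays labelled PSMA, the CXCL6 probe set lies higher, both CXCL8 probe sets lie lower, and CCL20 sits near 9 on every array.

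CXCR4 lies on chromosome 2 (GRCh38.p14, chr2:136114349-136118149). It had 3 probe sets annotated to it alone. The brightest on arrays labelled control, 217028_at, read 13.1, 11.98 and 12.95 on arrays labelled PSMA, against 154, 143 and 135 on arrays labelled control. The groups were far apart: the lowest control array stood 3.36 log2 units above the highest PSMA array. The means were 12.7 ± 0.621 and 144 ± 9.59, a log2 difference of -3.50 (SE 0.0624), or 11.3-fold lower as deposited. On the log2(value + 16) scale the difference was -2.48, so its size depends on how values near background are treated. The mean stood at percentile 23.8 of all probe sets on arrays labelled PSMA and at percentile 65.5 on arrays labelled control. With a floor at the table's lower quartile (13.02), the fold was 10.99. In such bulk samples, fewer cells with the transcript and less of it per cell cannot be told apart.

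The other CXCR4 probe sets showed the same direction at a smaller size. On 211919_s_at the arrays labelled PSMA read 14.1, 20.9 and 13.4 and the arrays labelled control 55.4, 42.8 and 59.2, 3.29-fold lower (log2 difference -1.72, SE 0.189). On 209201_x_at they read 13.9, 13.5 and 11.9, against 44.7, 38.9 and 47.1 on arrays labelled control, 3.33-fold lower (-1.73, SE 0.0925). Groups overlapped on neither. In Affymetrix names, _s_at and _x_at mark probe sets whose probes may also match other transcripts. These probe sets fell below the filter, since 2 and 0 of their control arrays exceeded it, while 217028_at passed only through its control arrays and so had to differ. On arrays labelled PSMA the 3 means lay between 12.7 and 16.1, at percentiles 23.8 to 29.5 of all probe sets.

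The stretch just before the CXCR4 start site is shown for the letters of known regulators. The minus-strand bases chr2:136118150-136118249, from 100 to 1 before the start (RefSeq, GRCh38.p14), read as follows, with the palindromic NRF1 motif first and the hypoxia response core GCGTG second in capitals.
CXCR4: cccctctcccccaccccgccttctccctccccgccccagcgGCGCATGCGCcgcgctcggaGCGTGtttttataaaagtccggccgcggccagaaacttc
Searched on both strands, the NRF1 motif occurred in 1.24% of all 35116 windows of this table, each 250 bases before to 50 after a start, and GCGTG in 36.5%. In CXCR4 they lay 59 to 50 and 39 to 35 bases before the start and did not overlap. NRF1, the transcription factor that binds the first motif, was itself measured: it read 107, 98.3 and 96.0 on arrays labelled PSMA, against 83.6, 81.2 and 77.3 on arrays labelled control, and rose by 0.32 on the log2 scale (SE 0.0556, limma adjusted p = 0.00114). HIF1A, a subunit that binds the second, differed by 0.02 on that scale (SE 0.0453, limma adjusted p = 0.696), and its relative EPAS1 rose by 0.23 (limma adjusted p = 0.00567).

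ACKR3 lies further along the same chromosome (chr2:236537122-236582354). Its probe set read 59.6, 52.9 and 54.3 on arrays labelled PSMA, against 31.4, 35.7 and 30.7 on arrays labelled control. Each array labelled PSMA exceeded each control array, by at least 0.57 log2 units. The means were 55.6 ± 3.53 and 32.6 ± 2.70, 1.71-fold higher (log2 difference 0.77, SE 0.0716). The probe set passed the filter only through its arrays labelled PSMA, where it barely exceeded it, so it too had to differ.

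CCL20, also on chromosome 2 (chr2:227813842-227817556), read 9.35, 9.73 and 9.08 on arrays labelled PSMA and 9.47, 8.84 and 9.41 on arrays labelled control. The groups overlapped, and at percentiles 16.3 and 16.5 of all probe sets the level was too dim for a fold. Its neighbours were different. All 10 of the nearest tested genes on chromosome 2 rose, from TRIP12 and SP100 to IRS1, with a median log2 difference of 0.51 and a range of 0.16 to 1.30. Of the 10 nearest to ACKR3, 8 rose, with a median of 0.505; GBX2 (2.70), COL6A3 (2.00) and AGAP1 (0.87) stood above ACKR3 itself (0.77), and GBX2 passed the filter only through its arrays labelled PSMA. Of the 10 nearest to CXCR4, 6 fell and 1 (MCM6) rose, with a median of -0.25 and the lowest value, -1.32, in the ubiquitin pseudogene UBBP1, 215 kb away. CXCR4 at -3.50 lay beyond all of its 10 neighbours, of which the furthest, ORC4, started 11816 kb away. CXCR4 was chosen by this contrast, so nothing is read from that rank. Over all 7035 genes tested, 30.1% rose and 33.5% fell. Whether the shared shift of neighbours takes part in the ACKR3 difference was not tested.

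**Figure D2:**
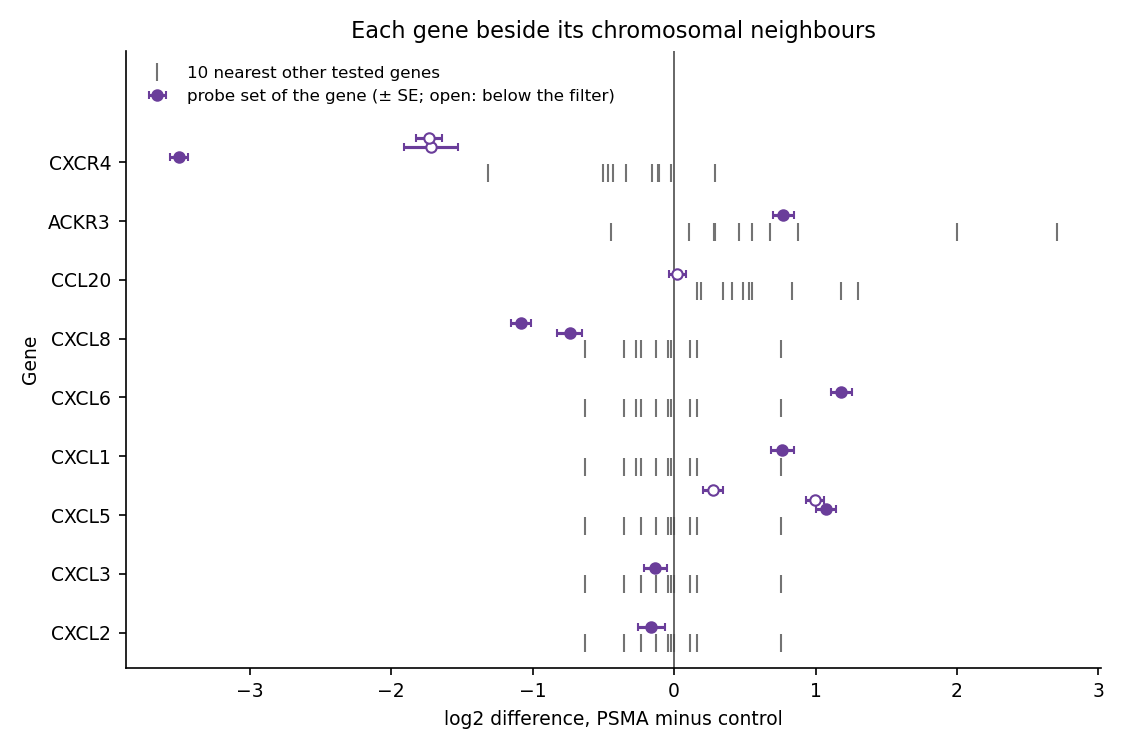
Log2 difference (PSMA minus control) of each probe set of 9 genes (purple circles with SE, open below the filter) above ticks for the 10 nearest other tested genes on the chromosome. CXCR4 lies at the far left of its neighbours, ACKR3 lies among neighbours that are mostly to the right of 0, and CCL20 lies at 0 while its 10 neighbours all lie to the right.

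The 6 ELR chemokine genes form a cluster on chromosome 4, in the order CXCL8, CXCL6, CXCL1, CXCL5, CXCL3 and CXCL2 on the reference, and are known targets of NF-kB. A stretch of each promoter, from 140 to 31 bases before the start site on the strand of the gene (RefSeq, GRCh38.p14), is shown because these genes moved apart from each other while sharing a kB motif. Capitals mark GGAATTTCC, or a longer form with 1 more G at its start that contains it, and the AP-1 motif TGANTCA.
CXCL6: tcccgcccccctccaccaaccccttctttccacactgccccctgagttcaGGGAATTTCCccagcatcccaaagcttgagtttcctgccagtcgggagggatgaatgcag
CXCL5: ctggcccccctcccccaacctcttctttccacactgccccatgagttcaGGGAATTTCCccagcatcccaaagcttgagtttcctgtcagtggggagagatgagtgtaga
CXCL1: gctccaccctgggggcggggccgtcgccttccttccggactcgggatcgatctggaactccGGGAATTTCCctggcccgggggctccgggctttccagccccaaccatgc
CXCL2: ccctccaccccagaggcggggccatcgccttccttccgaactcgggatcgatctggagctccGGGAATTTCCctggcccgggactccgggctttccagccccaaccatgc
CXCL3: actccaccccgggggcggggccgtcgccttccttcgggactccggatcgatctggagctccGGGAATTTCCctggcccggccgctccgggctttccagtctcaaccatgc
CXCL8: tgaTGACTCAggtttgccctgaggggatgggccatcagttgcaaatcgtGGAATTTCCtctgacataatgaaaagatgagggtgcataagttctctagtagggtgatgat
The stretches are chr4:73836538-73836647 for CXCL6 (plus strand), chr4:73998708-73998817 for CXCL5 (minus), chr4:73869253-73869362 for CXCL1 (plus), chr4:74099226-74099335 for CXCL2 (minus), chr4:74038720-74038829 for CXCL3 (minus) and chr4:73740429-73740538 for CXCL8 (plus).

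All 6 promoters held the core GGAATTTCC, which occurred on either strand in 0.461% of all windows of the table. The longer form, in 0.145% of windows, was found in CXCL6, CXCL5, CXCL1, CXCL2 and CXCL3, beginning 91 to 78 bases before the start. CXCL8 held the core alone, beginning 91 bases before the start. Of the 8 genes with a window, TGANTCA was found in CXCL8 (7.71% of all windows), where it did not overlap the kB core. Over the 250 bases before the start, CXCL6 and CXCL5 were 85.3% identical, CXCL1 and CXCL3 81.4%, CXCL2 and CXCL3 73.3% and CXCL1 and CXCL2 67.9%. CXCL8 was 39.7% to 41.5% identical to the other promoters. Motif matches describe these letters only. ACKR3 and CXCL16 had no window in the table.

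CXCL6, a neutrophil attractant also known as granulocyte chemotactic protein, had the largest increase of the set. It read 695, 631 and 686 on arrays labelled PSMA, against 327, 291 and 270.3 on arrays labelled control. The lowest PSMA array stood 0.95 log2 units above the highest control array. The means were 670.4 ± 34.6 and 296 ± 28.5, 2.27-fold higher (log2 difference 1.18, SE 0.0746).

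CXCL5, its closest paralog in promoter sequence, had 3 probe sets. The brightest, 214974_x_at, read 178, 148 and 164 on arrays labelled PSMA and 79.8, 78.0 and 74.9 on arrays labelled control, 2.10-fold higher (log2 difference 1.07, SE 0.0692). The dimmer 215101_s_at read 37.2, 35.3 and 40.3, against 18.8, 18.3 and 19.3 on arrays labelled control, 1.99-fold higher (0.996, SE 0.0657). These probe sets thus gave nearly the same size, though the second was below the filter on all 6 arrays. Their _x_at and _s_at names mark possible matches to other transcripts, and whether they share signal with CXCL6 was not tested. The remaining probe set, 207852_at, read 7.43, 7.20 and 6.79 on arrays labelled PSMA and 6.28, 6.02 and 5.44 on arrays labelled control, at percentiles 8.6 and 4.0 of all probe sets. It did not overlap between groups (log2 difference 0.27, SE 0.072), but the difference was 0 with that floor.

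CXCL1, a ligand of CXCR2 also known as a melanoma growth-stimulating activity, read 1173, 1099.9 and 1179 on arrays labelled PSMA, against 776, 644 and 621 on arrays labelled control. All arrays labelled PSMA were higher, by at least 0.50 log2 units. The means were 1150.4 ± 43.8 and 680.1 ± 83.9, 1.70-fold higher (log2 difference 0.76, SE 0.0833).

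CXCL2 and CXCL3, close relatives of CXCL1 that also bind CXCR2, did not follow it. CXCL2 read 129, 102 and 102 on arrays labelled PSMA and 119, 131 and 121 on arrays labelled control (log2 difference -0.16, SE 0.0933). Array 4 of the PSMA group lay within the control range and the other 2 below it. CXCL3 read 52.1, 54.7 and 50.1 on arrays labelled PSMA and 56.1, 65.0 and 51.5 on arrays labelled control (-0.13, SE 0.0833), at the level of the filter. Neither met the call rule. In each, leaving out 1 array ended the overlap of the groups and changed the call. The log2 difference was -0.27 for CXCL2 without PSMA array 4 and -0.21 for CXCL3 without control array 3. As these arrays stand out by the same values, nothing is read from those calls. These genes are close in sequence, and probe sets of CXCL1, CXCL2 and CXCL3 may share signal, which these data cannot separate.

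CXCL8, or interleukin 8, went the other way. On 202859_x_at it read 3349.9, 2723 and 2869 on arrays labelled PSMA, against 5403, 4968 and 4532 on arrays labelled control. The means were 2981 ± 328 and 4968 ± 436, 1.67-fold lower (log2 difference -0.74, SE 0.0901). All arrays labelled PSMA lay below all arrays labelled control. On 211506_s_at it read 833, 768 and 821 on arrays labelled PSMA, against 1759, 1541 and 1833 on arrays labelled control, 2.12-fold lower (-1.08, SE 0.0705). The groups did not overlap on either probe set. CXCL6, whose lower end on the reference lies 96.1 kb further along the chromosome, differed in the opposite direction.

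The plot of the chromosome 4 cluster sets these differences in order along the reference. The lower ends of CXCL8 and CXCL2 lie 356.5 kb apart, and their probe sets ran from -1.08 (CXCL8) through -0.13 and -0.16 (CXCL3, CXCL2) to 1.18 (CXCL6). The tested neighbours outside the set did not share 1 direction either. Of the 10 nearest to CXCL8, 1 rose (MTHFD2L, a mitochondrial folate enzyme, by 0.76), 4 fell and 5 did not pass, with a median of -0.08. PF4, another chemokine gene within the cluster, read 0.12 lower on that scale without passing (limma adjusted p = 0.276), and PPBP and PF4V1 were below the filter.

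**Figure D3:**
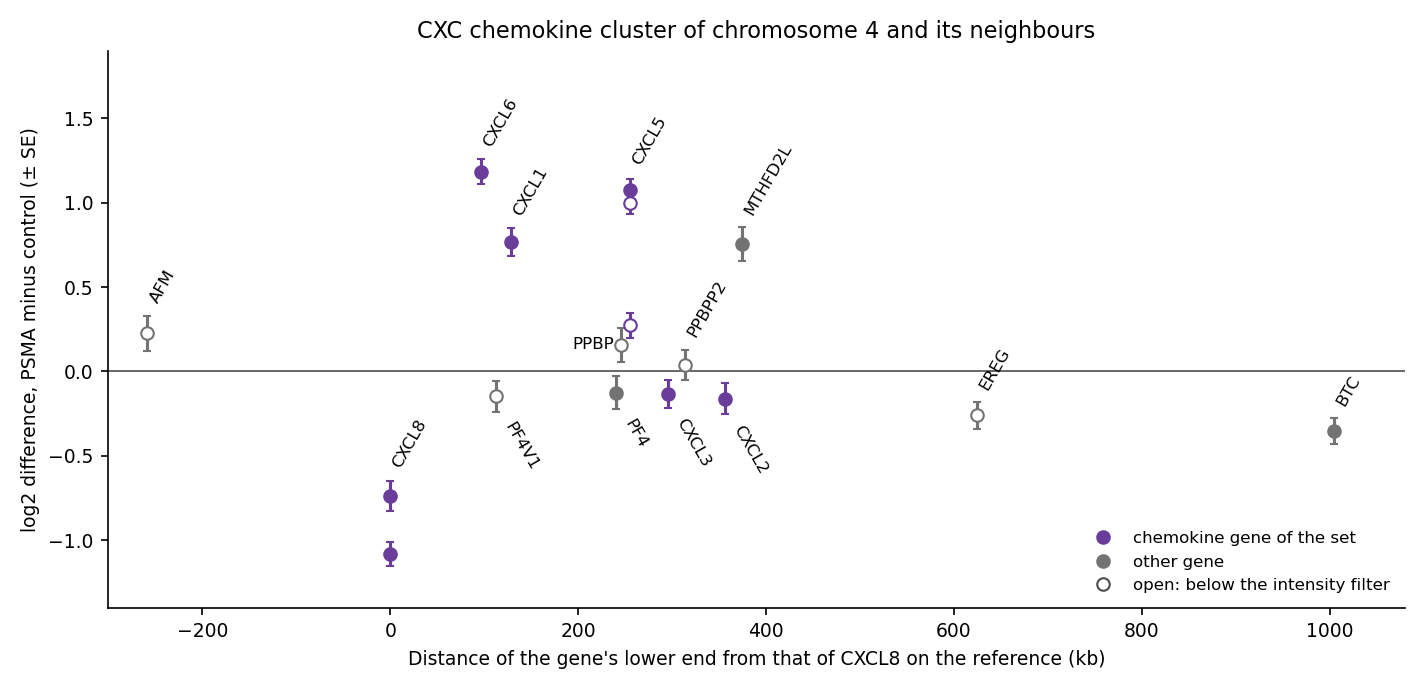
Log2 difference (PSMA minus control, with SE) of every single-gene probe set in the chromosome 4 chemokine cluster, plotted against the distance in kb from CXCL8; purple marks the chemokine genes described here, grey other genes, and open circles probe sets below the filter. CXCL8 lies below 0 at -0.74 and -1.08, CXCL6, CXCL1 and the brighter CXCL5 probe sets lie at 0.76 to 1.18, and CXCL3 and CXCL2 lie just under 0.

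Other chemokine and chemokine receptor genes, whether or not they pair with this set, were mostly dim on these arrays. Of 17 other CC chemokine genes on the array 0 passed the filter (the brightest, CCL24, averaged 24.2 on arrays labelled PSMA and 21.2 on arrays labelled control), and of 11 other CXC, XC and CX3C chemokine genes only PF4 did. Of 19 other chemokine receptor genes, CCRL2, an atypical receptor that binds chemerin, alone passed it. CCRL2 read 39.5, 36.2 and 36.0 on arrays labelled PSMA, against 83.4, 83.8 and 91.7 on arrays labelled control, a log2 difference of -1.21 (SE 0.0575). It passed the filter only through its control arrays and so had to differ. The following genes were named for their pairing after their values were seen. CXCL12, which binds both CXCR4 and ACKR3, averaged 13.5 on arrays labelled PSMA and 10.6 on arrays labelled control on its brightest probe set. CXCR2 averaged 6.35 and 5.81, CXCR1 34.0 and 31.7, and CCR6, the receptor of CCL20, 5.55 and 6.32 on the same groups. At such levels presence and absence cannot be told from intensity alone.

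Genes of CXCR4 signalling and turnover were read from lists of known components, beside 63.6% of all 7035 genes that passed and a median log2 difference of -0.01 over all of them. Among G proteins, arrestins and kinases 4 of 17 tested genes rose and 6 fell, 7 missing the threshold, with a median of 0.02. RGS4, which speeds the switching-off of G proteins, fell to 83.8 ± 8.10 on arrays labelled PSMA, against 234 ± 10.98 on arrays labelled control (log2 difference -1.48, limma adjusted p = 6.62e-07). GNAI1, an alpha subunit of the inhibitory G proteins through which chemokine receptors signal, fell by 1.26 (limma adjusted p = 2.48e-07), while its relative GNAI2 rose by 0.35 (limma adjusted p = 0.00175). The 3 arrays of each group did not overlap for any of these 3 genes. DOCK1, an activator of the small GTPase Rac, had a log2 difference of 0.76, but it passed the filter only through its arrays labelled PSMA and so had to differ.

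Of 12 tested genes of receptor ubiquitination and sorting, which send CXCR4 to the lysosome, 0 rose, 7 fell and 5 did not pass, with a median of -0.20. This was 58.3% past the threshold, against 63.6% of all genes tested, of which 30.1% rose and 33.5% fell. TSG101, a component of the sorting machinery at endosomes, fell to 627 ± 25.9 on arrays labelled PSMA, against 1001 ± 24.5 on arrays labelled control (log2 difference -0.68, limma adjusted p = 5.05e-06). STAM2, an adaptor of the same route, fell by 0.57 (limma adjusted p = 5.06e-05). The number past the threshold was 4 without PSMA array 4 or without control array 1. Of 11 tested regulators of CXCR4 transcription 3 rose and 2 fell (45.5%, against the same 63.6%), with a median of 0.02. NRF1 and EPAS1 had the largest increases, and TFAP2A (-0.27) and the NF-kB subunit RELA (-0.14) the largest decreases. The number of these regulators past the threshold was 3 without control array 2 and 7 without control array 3.

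Upstream of the ELR chemokines, 7 of 19 tested genes of the NF-kB and interleukin 1 route rose, 6 fell and 6 did not pass, with a median of 0.05. This was 68.4% past the threshold, against 63.6% of all genes tested, of which 30.1% rose and 33.5% fell. CEBPD, a transcription factor of inflammatory genes, rose by 0.77 to 104 ± 2.51 on arrays labelled PSMA, against 61.3 ± 2.20 on arrays labelled control (limma adjusted p = 2.03e-06). NFKBIA, the inhibitor of NF-kB that NF-kB itself induces, rose by 0.63 (limma adjusted p = 6.84e-05). The interleukin 1 decoy receptor IL1R2 had a log2 difference of -3.37 and the receptor antagonist IL1RN one of -1.57. Both are among the 6 that fell, but they passed the filter only through their control arrays and so had to differ. Named after their values were seen, IL1B fell by 0.95 (limma adjusted p = 3.02e-06) and TNFAIP3 by 0.73 (limma adjusted p = 0.000344). Every array exceeded the filter for IL1B and TNFAIP3. Chemokine transcripts are also controlled by decay at AU-rich elements. Of 12 tested genes of that route 5 rose and 4 fell (75%, against the same 63.6%), with a median of 0.10. The number past the threshold, 9 here, was 6 to 8 with 1 array left out. It was 6 with probe sets averaged per gene and 7 under quantile normalization. ZFP36L2 (0.62) and the kinase gene MAPKAPK2 (0.45) rose most, while DCP2, a decapping enzyme gene, fell by 0.34 and ZFP36, whose protein tristetraprolin destabilises chemokine transcripts, fell to 51.3 ± 3.07 on arrays labelled PSMA, against 76.3 ± 7.18 on arrays labelled control (log2 difference -0.57, limma adjusted p = 0.000207). Among genes that shed or trim chemokines, 6 of 15 rose and 4 fell (66.7%), with a median of -0.05. The aminopeptidase gene ANPEP rose by 0.49 and the cathepsin gene CTSL by 0.37, while the collagenase gene MMP1 fell by 0.80 and the cathepsin gene CTSD by 0.36.

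**Figure D4:**
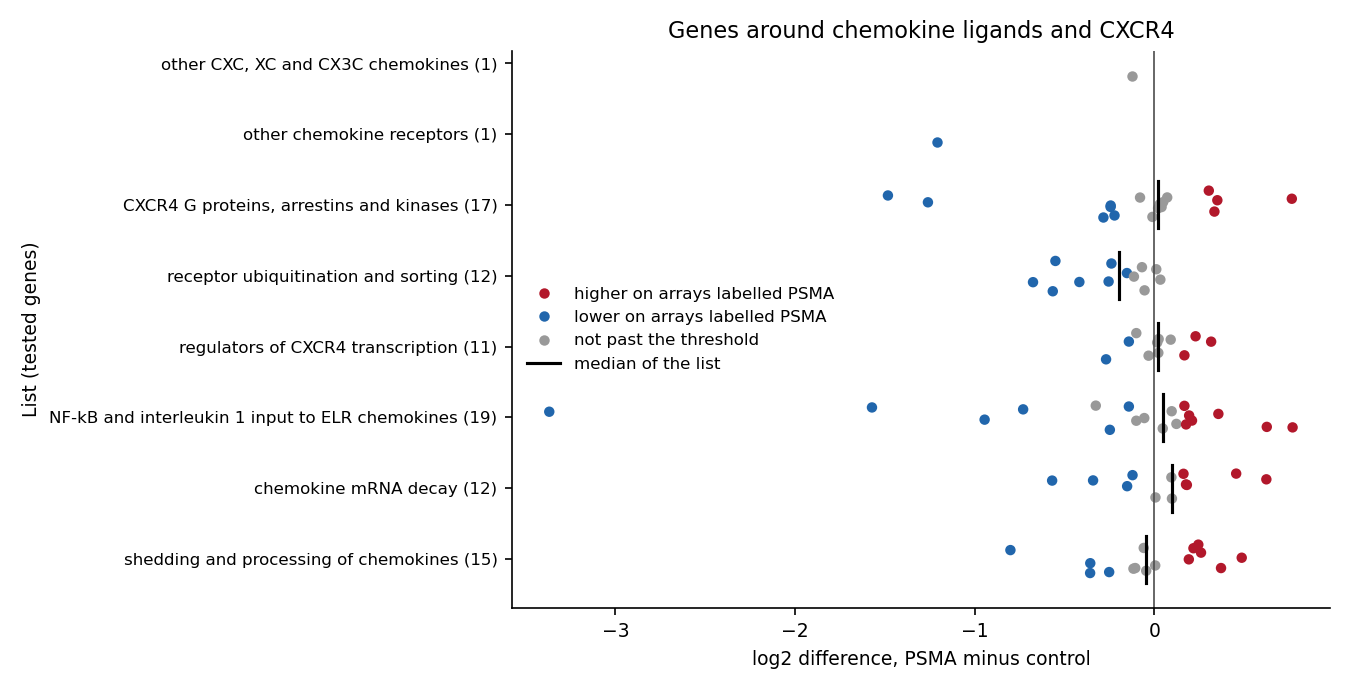
Log2 difference (PSMA minus control) of each tested gene in 8 lists around chemokine ligands and CXCR4; red genes passed limma as higher and blue genes as lower on arrays labelled PSMA, grey genes did not pass, black bars are list medians, and numbers in brackets count tested genes. IL1R2 at -3.37, RGS4 at -1.48 and IL1RN at -1.57 stand far to the left, 0 genes of the sorting list are red, and the medians of the 6 lists with over 1 tested gene lie between -0.20 and 0.10.

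The tested genes whose profile over the 6 arrays was most like that of CXCR4 were IL1R2, PTPN20 and ARL14. Likeness was the root mean square difference between log2 profiles, each centred on its own mean, and was 0.125, 0.139 and 0.19 log2 units. IL1R2 averaged 22.6 ± 1.87 on arrays labelled PSMA and 232 ± 6.82 on arrays labelled control. PTPN20, a phosphatase gene, averaged 9.57 ± 0.612 and 95.8 ± 15.3, and ARL14, a small GTPase gene, 30.6 ± 5.84 and 289 ± 10.9. IL1R2, PTPN20 and ARL14 passed the filter only through their control arrays and so had to differ. The profiles most like that of CXCL6 were DEPTOR, an inhibitor of mTOR (0.051), MED4, a Mediator subunit (0.055), and LPGAT1, an acyltransferase of lysophosphatidylglycerol (0.058). DEPTOR passed the filter only through its arrays labelled PSMA and so had to differ. With 6 arrays in 2 groups this measure of likeness mostly reflects the size of the group difference.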

How the data were processed

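Biotin-labelled cRNA of PC3 cells (2 µg of total RNA) was hybridised to 6 Affymetrix arrays, per the labels' protocols. The deposited intensity values were made by the authors with GCRMA, per the submitters' processing notes (version not given in the sources used here). They were taken as linear, since the highest was 17455. GCRMA pulls dim probe sets to a common low level, so folds against that level depend on its background correction. The precision is limited by the 3 arrays of each group. Of 22277 probe sets, 62 were controls, 19064 had 1 gene symbol, 1043 had several and 2108 had none listed. Symbols were looked up in RefSeq (GRCh38.p14), where 19058 were found.

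Values were log2-transformed with no pseudocount. Probe sets above 52.5 on 3 or more arrays (11303) entered limma 3.58.1 under R 4.3.3 (lmFit, eBayes, two-sided, Benjamini-Hochberg over all probe sets). Each of 7035 genes was then represented by its brightest single-gene probe set past the filter. These were fitted separately in the same way, with Benjamini-Hochberg over genes. List counts, and the SEs and adjusted p-values of list genes, came from that fit. SEs of probe sets below the filter came from the fit without a filter. Promoters were searched in Python 3.11.15 with Biopython 1.88 (global alignment for identity), and figures used matplotlib 3.10.9. The genes, lists and neighbours were chosen with earlier results of these data known. Named genes were the set itself, FOLH1, the 2 largest increases and decreases past the threshold in each list, and the 3 nearest profiles of CXCR4 and of the gene with the largest increase. Alternatives covered normalization, pseudocount, filter, floor, minimum fold, variance model, probe set choice and leaving out each array.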

Additional observations from a re-analysis of the deposited data

How the results depend on the processing

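No paired analysis was possible because the groups share no replicate number. With the 75th percentile filter (258), fewer features were tested, and 3995 of 5780 probe sets and 2773 of 3904 genes passed. So did 4 of 4 chemokine and receptor probe sets and 32 of 45 pathway genes. With limma set against a minimum fold of 1.5, 747 of 11303 probe sets and 526 of 7035 genes passed. Of the chemokine and receptor probe sets 4 of 9 did (CXCR4, CXCL5, CXCL6 and CXCL8 on 211506_s_at), and of the pathway genes 7 of 86. Without that minimum fold 6846, 4476, 7 and 53 passed. With no filter, 11 of the 14 probe sets passed, among them all 3 of CXCR4, beside 7101 of all 22215 probe sets. Leaving out 1 array gave 6078 to 6822 of 11303 probe sets and 3999 to 4442 of 7035 genes. It gave 7 to 8 of 9 chemokine and receptor probe sets and 46 to 54 of 86 pathway genes. The share of called probe sets that were higher was 46.6%, and 44.2% to 50.5% under the other scalings and filters. With log2(value + 16), CXCR4 on 217028_at was -2.48 and ACKR3 0.56. No chemokine or receptor probe set that met the call rule changed sign under any alternative run. With probe sets averaged per gene, IL1RAP reversed to -0.41, since its probe sets differ in sign. Dim values limit the CXCR4 fold: its arrays labelled PSMA lie at the 25th percentile, so the size depends on the background correction.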

Other observations

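Next to the chemokine cluster on chromosome 4 lie genes of epidermal growth factor ligands, named here after their values were seen. BTC, which encodes betacellulin, read 48.3, 43.2 and 40.8 on arrays labelled PSMA, against 54.1, 61.2 and 53.8 on arrays labelled control, a log2 difference of -0.35. It passed the filter only through its control arrays and so had to differ. EREG, which encodes epiregulin, read 14.7, 15.3 and 13.1 on arrays labelled PSMA and 17.9, 17.8 and 16.03 on arrays labelled control, below the filter. MTHFD2L, 17.5 kb from CXCL2, read 98.0, 79.1 and 77.9 on arrays labelled PSMA, against 54.9, 49.8 and 46.0 on arrays labelled control. The groups did not overlap for any of these genes.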
